A study of Homo sapiens with 16 samples.

Results

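Bypass receptor tyrosine kinases are receptors that can stand in for EGFR when it is blocked. The set described here holds 9 of the 24293 loci in the deposited table: the receptors AXL, MET, EPHA2, IGF1R, INSR, FGFR1 and FGFR2, the AXL ligand GAS6 and the receptor adaptor IRS1. They were picked by gene symbol as genes known from resistance to EGFR inhibitors. That rule uses no measured value, but earlier results of these data were known when it was written. Each gene had 1 row in the table. Their transcripts had been sequenced as polyA RNA from HCC4006, a non-small cell lung cancer line in long use whose EGFR carries an activating mutation. The cells received gefitinib plus AZ1366, gefitinib alone, AZ1366 alone or DMSO as vehicle, for 24 hours, with each compound at 100 nM and 4 libraries in each of the 4 groups. Gefitinib blocks the EGFR kinase, and AZ1366 blocks the tankyrases, enzymes that mark proteins such as AXIN and the angiomotins for degradation. All libraries come from this 1 line, so the values describe its own EGFR-mutant background.

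A receptor tyrosine kinase binds a ligand outside the cell, pairs with a second receptor and phosphorylates tyrosines that recruit adaptors, which feed the RAS-ERK and PI3K-AKT pathways. Because EGFR uses the same pathways, an active AXL, MET, IGF1R, FGFR or EPHA2 can keep a lung cancer cell growing under an EGFR inhibitor, and amplified MET and abundant AXL are known from resistant tumours. Tankyrase inhibitors also stabilise angiomotins, which hold the coactivator YAP out of the nucleus, and YAP acts on genes through TEAD factors, which bind the motif GGAATG. AXL is a known YAP target gene.

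AXL, EPHA2, IRS1, MET and FGFR1 were lower with each compound alone and lower still with both. Promoter sequence is shown for the 3 of them, AXL, EPHA2 and IRS1, in which a TEAD motif was found, a choice made after the search. FGFR1 was not part of that search. The windows hold the 250 bases before an annotated transcript start and come from RefSeq on GRCh38.p14, written 5′ to 3′ on the gene's own strand, with each GGAATG, or CATTCC where the motif lies on the opposite strand, in capitals. EPHA2 (chr1:16156070-16156319, minus strand) and IRS1 (chr2:226799821-226800070, minus strand) had 1 start each, and AXL had 2, with windows at chr19:41218973-41219222 and chr19:41226505-41226754 on the plus strand.
EPHA2: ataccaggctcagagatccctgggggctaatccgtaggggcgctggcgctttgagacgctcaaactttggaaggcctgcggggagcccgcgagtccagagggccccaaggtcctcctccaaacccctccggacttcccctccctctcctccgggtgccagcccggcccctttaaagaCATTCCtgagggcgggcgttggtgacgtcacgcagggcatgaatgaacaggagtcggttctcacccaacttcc
IRS1: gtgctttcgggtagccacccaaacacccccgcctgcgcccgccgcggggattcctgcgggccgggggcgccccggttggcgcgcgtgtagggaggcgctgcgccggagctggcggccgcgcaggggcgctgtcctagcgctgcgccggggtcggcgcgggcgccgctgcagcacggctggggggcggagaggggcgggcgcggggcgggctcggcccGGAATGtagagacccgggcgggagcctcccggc
AXL, upstream start: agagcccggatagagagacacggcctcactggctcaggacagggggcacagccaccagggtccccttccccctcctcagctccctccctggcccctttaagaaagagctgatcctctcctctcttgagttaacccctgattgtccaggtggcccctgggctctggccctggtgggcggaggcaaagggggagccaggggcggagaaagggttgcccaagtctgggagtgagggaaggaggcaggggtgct
AXL, downstream start: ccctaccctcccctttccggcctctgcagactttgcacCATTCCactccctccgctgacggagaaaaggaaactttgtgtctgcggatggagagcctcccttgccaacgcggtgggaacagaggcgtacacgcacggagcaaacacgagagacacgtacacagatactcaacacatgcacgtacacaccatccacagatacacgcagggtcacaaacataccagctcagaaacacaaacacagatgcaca
The match lay 73 to 68 bases before the EPHA2 start, 33 to 28 bases before the IRS1 start and 212 to 207 bases before the downstream AXL start, and the upstream AXL window held none. The windows searched covered 8 of the 9 genes and numbered 13 in all. No FGFR1 window was among those searched, so neither a match nor its absence is given for that gene. FGFR2 held a match at 2 of its alternative starts, and the windows of MET, GAS6, IGF1R and INSR held none. Of all 35116 windows of the same length in the table, 11.9% held GGAATG on either strand, so a match is common. The AP-1 motif TGANTCA, searched on both strands as well, was in none of the 13 windows and in 6.57% of all windows. A match is a description of the letters, and no binding was measured.

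The deposited values are FPKM, fragments scaled to transcript length and to the mapped fragments of the library, and summed to between 433357 and 478179 per library, with 11326 to 11799 loci at 1 FPKM or more. The number of reads is not given, so depth is unknown. The epithelial genes EPCAM, CDH1, KRT8, KRT18, KRT19 and KRT7 were abundant in every library. Their summed level was 3573 to 3964 FPKM with both compounds, 4367 to 4745 with gefitinib, 3668 to 4920 with AZ1366 and 5198 to 5922 with vehicle. The keratins KRT8, KRT18 and KRT7 had lower means in each treated group than with vehicle, KRT8 at 695 FPKM with both compounds, 1054 with gefitinib, 914 with AZ1366 and 1454 with vehicle. EPCAM went the other way, with means of 292 FPKM with both compounds, 251 with gefitinib, 258 with AZ1366 and 229 with vehicle. CDH1 was above vehicle in the AZ1366 mean only, and KRT19 below it in the 2 gefitinib groups only. Of the lung lineage genes, NKX2-1 lay between 5.45 and 9.93 FPKM, while the surfactant gene SFTPB stayed at or below 0.197 FPKM and the protease gene NAPSA at or below 0.466. The 4 fibroblast markers summed to at most 2.84 FPKM and the 3 endothelial markers to 0.535 to 0.694 with both compounds, 0.666 to 0.788 with gefitinib, 0.241 to 0.389 with AZ1366 and 0.251 to 0.283 with vehicle. PTPRC and CD3E, which define leukocytes, reached at most 0.139 FPKM. The third leukocyte marker, CD68, also a lysosomal protein of other cells, lay between 33.5 and 63.0 FPKM and made up nearly all of the leukocyte sum, which was 57.2 to 63.1 FPKM with both compounds, 49.4 to 54.3 with gefitinib, 38.5 to 45.0 with AZ1366 and 33.5 to 37.5 with vehicle. On the first principal component, which held 71.8% of the variance, AZ1366 replicate 1 scored -19.6, against -6.50 to -3.10 for the other AZ1366 libraries and -39.3 to -34.0 for vehicle. For the 8 genes tested with limma, changes, interactions and ratios between 2 genes that use AZ1366 are therefore also given without that library. Ratios of group means rest on all 4 AZ1366 libraries unless stated. Without replicate 1 the ratio of AZ1366 to vehicle was 0.378 for AXL, 0.405 for GAS6 and 0.564 for FGFR2. In a bulk sample, fewer cells of a type and less RNA per cell cannot be told apart, and no label says that replicate libraries were made from separate cultures. The p-values thus cover only the spread between libraries, which may be technical.

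Tests were run with limma on log2(FPKM + 1) over the 11647 loci with a mean of at least 1 FPKM, and a gene was called where the Benjamini-Hochberg adjusted p over all of them was under 0.05. A change is a difference on that log2 scale, given with its standard error (SE). Fold values are ratios of group means in FPKM. DUSP6, a feedback phosphatase of ERK, changed by -2.73 ± 0.08 (SE) with gefitinib and by -0.05 ± 0.08 with AZ1366, which did not pass. The YAP target CTGF changed by -1.02 ± 0.04 with AZ1366 and by 1.16 ± 0.04 with gefitinib. With both compounds the CTGF change was -0.03 ± 0.04, which did not pass. ANKRD1, read as a further check of the compounds, changed by -1.32 ± 0.08 with AZ1366 and by 0.64 ± 0.08 with gefitinib. With both compounds ANKRD1 changed by -0.54 ± 0.08, and its changes against vehicle were all called. EGFR itself was called lower in all 3 comparisons with vehicle, with changes of -1.86 ± 0.11 with both compounds, -1.01 ± 0.11 with gefitinib and -0.92 ± 0.11 with AZ1366.

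The 9 genes spanned a wide range of levels. With vehicle the order by mean FPKM, which is scaled to transcript length, was AXL, MET, EPHA2, GAS6, IRS1, IGF1R, FGFR1, FGFR2 and INSR, and only the neighbours EPHA2 and GAS6 overlapped in their library values. AXL stood above 96.0% of the tested loci and MET above 94.0%, while FGFR1 stood above 22.4% and FGFR2 above 17.7%. With both compounds AXL and MET overlapped, as did FGFR2 and IRS1. With AZ1366, MET lay above AXL with no overlap, while EPHA2 overlapped GAS6, IGF1R overlapped IRS1 and FGFR1 overlapped FGFR2, and without AZ1366 replicate 1 none of these 3 pairs overlapped. With gefitinib AXL stayed first, MET overlapped GAS6 and FGFR2 overlapped IRS1.

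**Figure D1:**
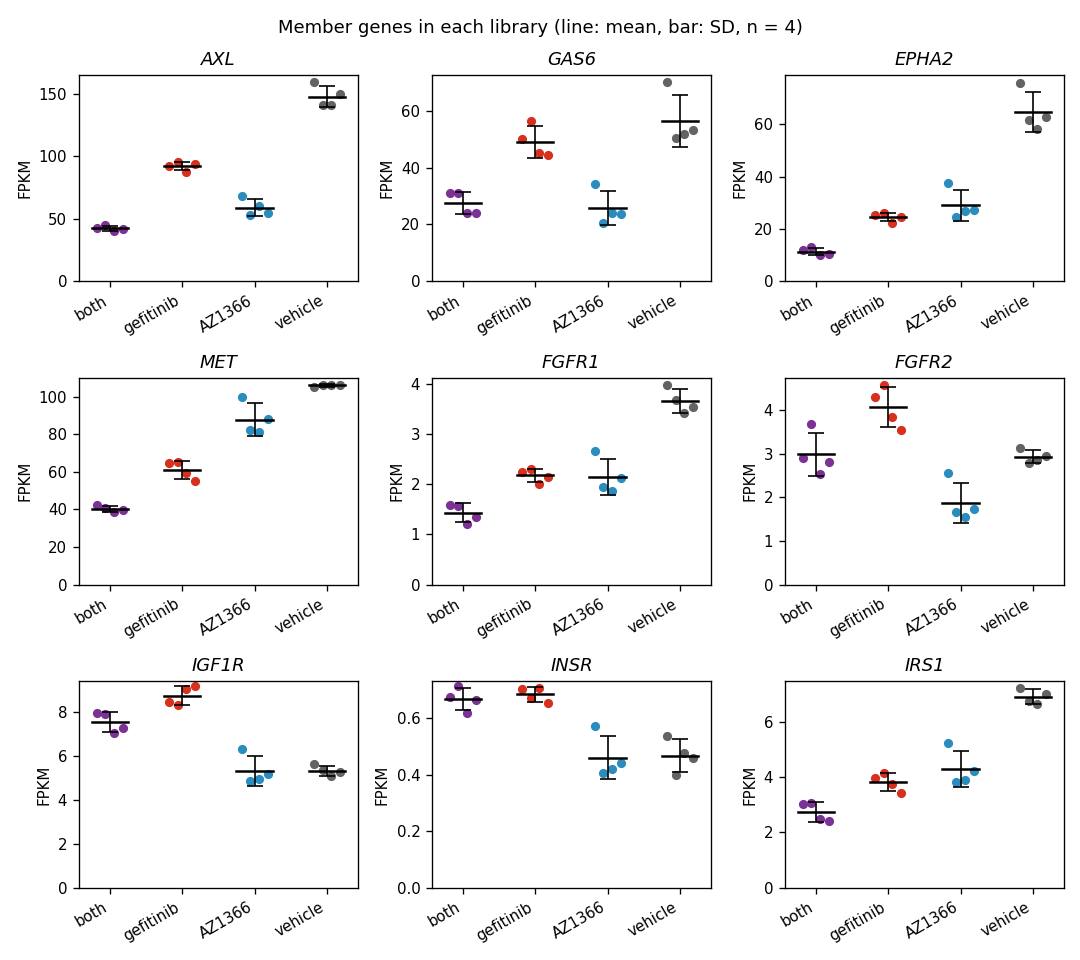
FPKM of the 9 genes in each library, with the group mean (line) and SD (bar) of 4 libraries for both compounds, gefitinib, AZ1366 and vehicle. AXL, EPHA2, MET, FGFR1 and IRS1 lie below every vehicle library in all 3 treated groups, while IGF1R and INSR lie above vehicle in the 2 groups that received gefitinib.

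AXL and its ligand GAS6 were both low with AZ1366, and AXL, unlike GAS6, was also called lower with gefitinib. AXL (locus chr19:41725108-41767671 on hg19) is the TAM family receptor most often linked to escape from EGFR inhibitors. It measured 43.1, 45.0, 40.4 and 41.8 FPKM with both compounds and 92.6, 95.3, 87.4 and 94.1 FPKM with gefitinib. In the AZ1366 libraries it measured 68.6, 52.8, 60.0 and 54.8 FPKM, against 159, 141, 141 and 149.7 FPKM in the vehicle libraries. The 4 groups did not overlap, with the combination lowest, AZ1366 next, then gefitinib, and vehicle highest. Mean AXL was 0.288 of vehicle with both compounds, 0.625 of vehicle with gefitinib and 0.399 of vehicle with AZ1366. The log2 changes against vehicle were -1.77 ± 0.07 with both (SE, adjusted p = 2.96e-13), -0.67 ± 0.07 with gefitinib (adjusted p = 2.32e-07) and -1.32 ± 0.07 with AZ1366 (adjusted p = 8.89e-10). Only 5 of the 11647 tested loci changed further down than AXL with AZ1366. AXL also fell with both compounds relative to gefitinib, by 1.10 on the log2 scale, and relative to AZ1366, by 0.46.

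GAS6 (chr13:114518583-114567046) is the secreted ligand that activates AXL, TYRO3 and MERTK. It measured 30.9, 31.1, 24.1 and 24.0 FPKM with both compounds and 49.9, 56.5, 45.3 and 44.3 FPKM with gefitinib. The AZ1366 libraries gave 34.4, 20.6, 24.2 and 23.6 FPKM, against 70.05, 50.4, 51.7 and 53.2 FPKM with vehicle. Both groups with AZ1366 lay below both groups without it, and the ranges overlapped within each of these 2 pairs of groups. GAS6 fell with both compounds, to 0.489 of vehicle (-1.004 ± 0.14, adjusted p = 2.97e-06), and with AZ1366, to 0.456 of vehicle (-1.12 ± 0.14, adjusted p = 8.91e-06). With gefitinib the change was -0.19 ± 0.14 and did not pass (adjusted p = 0.231). The combination was lower than gefitinib (-0.81 ± 0.14, adjusted p = 0.000181), while against AZ1366 the difference was 0.11 ± 0.14 (adjusted p = 0.497). Without AZ1366 replicate 1 that last difference was 0.25 (adjusted p = 0.068). The interval of the GAS6 locus also covers FLJ41484, whose mean was 0.317 FPKM. The ratio of AXL to GAS6 averaged 1.56 ± 0.17 with both compounds, 1.90 ± 0.18 with gefitinib, 2.34 ± 0.25 with AZ1366 (2.45 without its replicate 1) and 2.66 ± 0.26 with vehicle (SD, n = 4).

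MET, the receptor for HGF, had its lower single-compound level with gefitinib, whereas AXL had it with AZ1366. MET (chr7:116312459-116438440) measured 42.5, 40.6, 38.5 and 39.8 FPKM with both compounds and 64.6, 65.3, 59.2 and 55.3 FPKM with gefitinib. Libraries with AZ1366 alone gave 99.99, 82.2, 81.0 and 87.9 FPKM, against 105, 106, 106 and 106 FPKM with vehicle. No 2 groups overlapped, and AZ1366 was the group nearest to vehicle. The ratios to vehicle were 0.381 with both compounds, 0.577 with gefitinib and 0.8289 with AZ1366. The changes were -1.37 ± 0.07 with both (adjusted p = 3.32e-12), -0.79 ± 0.07 with gefitinib (adjusted p = 1.36e-08) and -0.27 ± 0.07 with AZ1366 (adjusted p = 0.00202). The AZ1366 change was smaller, though still called, after median-ratio scaling (-0.15) and after a correction for transcript length and GC content (-0.13). Adding gefitinib to AZ1366 lowered MET to 0.460 of its AZ1366 level, and adding AZ1366 to gefitinib lowered it to 0.660 of its gefitinib level (-0.58, or -0.37 after the length and GC correction). The AXL to MET ratio was 1.06 ± 0.04 with both compounds, 1.52 ± 0.12 with gefitinib, 0.673 ± 0.052 with AZ1366 (0.669 without its replicate 1) and 1.397 ± 0.089 with vehicle (SD, n = 4). In all 4 AZ1366 libraries MET exceeded AXL, and in all 12 other libraries AXL exceeded MET.

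EPHA2, an ephrin receptor that can also signal without ligand, had the largest fall of the 9 genes with both compounds. EPHA2 (chr1:16450832-16482582) measured 11.9, 13.2, 10.1 and 10.3 FPKM with both compounds and 25.2, 26.0, 22.4 and 24.5 FPKM with gefitinib. With AZ1366 it measured 37.7, 24.6, 26.9 and 27.1 FPKM, against 75.6, 61.5, 58.2 and 62.9 FPKM with vehicle. The single compounds overlapped each other, the combination lay below both, and vehicle lay above all. Mean EPHA2 was 0.177 of vehicle with both compounds, 0.380 of vehicle with gefitinib and 0.451 of vehicle with AZ1366. The changes were -2.40 ± 0.11 with both (adjusted p = 2.77e-12), -1.35 ± 0.11 with gefitinib (adjusted p = 1.44e-08) and -1.13 ± 0.11 with AZ1366 (adjusted p = 9.87e-07). Counted from the lowest change of the 11647 loci, EPHA2 was number 11 with both compounds, number 34 with gefitinib and number 16 with AZ1366. The product of its single-compound ratios was 0.171, beside the 0.177 measured with both. Without AZ1366 replicate 1 its AZ1366 ratio was 0.406, which makes that product smaller and moves it away from the measured ratio. The AZ1366 ratio of IGF1R was then 0.937, which moves the IGF1R product toward its measured ratio. In relative terms IGF1R then lay nearer to its product than EPHA2. With all AZ1366 libraries included, the other tested genes lay farther from their product than EPHA2. Product and measured ratio were 0.249 and 0.288 for AXL, 0.396 and 0.489 for GAS6, and 0.478 and 0.381 for MET. They were 0.345 and 0.398 for IRS1, 0.350 and 0.391 for FGFR1, 0.890 and 1.02 for FGFR2, and 1.64 and 1.42 for IGF1R.

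The insulin and IGF genes did not move together: both receptors were higher in the gefitinib groups and their adaptor was lower in all treated groups. IGF1R (chr15:99192761-99507759), which binds IGF1 and IGF2, measured 7.97, 7.94, 7.06 and 7.28 FPKM with both compounds and 8.47, 8.34, 9.05 and 9.19 FPKM with gefitinib. With AZ1366 it measured 6.33, 4.85, 4.97 and 5.17 FPKM, against 5.65, 5.35, 5.08 and 5.26 FPKM with vehicle. Both groups with gefitinib lay above both groups without it, and AZ1366 overlapped vehicle. IGF1R rose 1.42-fold with both compounds (0.43 ± 0.07, adjusted p = 1.53e-05) and 1.64-fold with gefitinib (0.62 ± 0.07, adjusted p = 4.79e-07). After quantile normalization the change was 0.64 with both compounds and 0.69 with gefitinib, the same order as deposited. After the length and GC correction it was 0.86 with both compounds and 0.78 with gefitinib, so that correction turned the order. With AZ1366 the change was -0.01 ± 0.07 (adjusted p = 0.95), or -0.08 without AZ1366 replicate 1 (adjusted p = 0.225). After quantile normalization it was 0.14 (adjusted p = 0.0228), and after the length and GC correction 0.28 (adjusted p = 0.000358). IGF1R with both compounds relative to gefitinib was -0.19 ± 0.07 (adjusted p = 0.0281), a call that was lost after quantile normalization (-0.04, adjusted p = 0.497) and turned to 0.083 after the length and GC correction (adjusted p = 0.204).

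INSR (chr19:7112266-7294011), the insulin receptor, was under 1 FPKM in every library and outside the limma test. It measured 0.675, 0.713, 0.616 and 0.663 FPKM with both compounds and 0.704, 0.671, 0.707 and 0.654 FPKM with gefitinib. Under AZ1366 alone the values were 0.571, 0.404, 0.420 and 0.443 FPKM, against 0.537, 0.398, 0.475 and 0.459 FPKM with vehicle. As for IGF1R, the 2 groups with gefitinib lay above the 2 groups without it, and the ranges overlapped within each pair. Mean INSR was 1.43-fold that of vehicle with both compounds and 1.46-fold with gefitinib. An exact permutation test on log2(FPKM + 1), two-sided, gave p = 0.0286 for each of these, the smallest that 4 against 4 libraries allow, and 0.0476 adjusted over 5 comparisons. With AZ1366 the difference from vehicle was -0.01 (exact permutation p = 0.8286). At this level a change rests on few fragments, of unknown number, and the log2(FPKM + 1) scale understates it.

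IRS1 (chr2:227596033-227663506), the adaptor that links both receptors to PI3K, measured 3.03, 3.07, 2.47 and 2.41 FPKM with both compounds and 3.98, 4.15, 3.76 and 3.42 FPKM with gefitinib. With AZ1366 it measured 5.22, 3.83, 3.88 and 4.22 FPKM, against 7.22, 6.73, 6.64 and 7.01 FPKM with vehicle. The single compounds overlapped each other, between the combination below and vehicle above. IRS1 fell to 0.398 of vehicle with both compounds (-1.08 ± 0.08, adjusted p = 1.57e-09), to 0.555 with gefitinib (-0.71 ± 0.08, adjusted p = 8.59e-07) and to 0.621 with AZ1366 (-0.59 ± 0.08, adjusted p = 3.00e-05). After the length and GC correction the change was -0.68 with both compounds and -0.33 with AZ1366, and that of both compounds against gefitinib was -0.11, beside -0.37 as deposited; all 3 were still called. The ratio of IGF1R to IRS1 averaged 2.77 ± 0.20 with both compounds, 2.31 ± 0.30 with gefitinib, 1.25 ± 0.03 with AZ1366 (1.26 without its replicate 1) and 0.773 ± 0.019 with vehicle (SD, n = 4). No library of 1 group reached the range of another except between both compounds and gefitinib.

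The 2 FGF receptors went opposite ways with gefitinib and the same way with AZ1366. FGFR1 (chr8:38268656-38326352), typical of mesenchymal cells, measured 1.60, 1.57, 1.20 and 1.36 FPKM with both compounds and 2.24, 2.31, 2.01 and 2.15 FPKM with gefitinib. In AZ1366 libraries FGFR1 stood at 2.67, 1.95, 1.87 and 2.12 FPKM, against 3.98, 3.69, 3.43 and 3.54 FPKM with vehicle. The combination lay lowest and vehicle highest, each without overlap, and the single compounds overlapped. FGFR1 fell to 0.391 of vehicle with both compounds (-0.94 ± 0.08, adjusted p = 3.07e-09), to 0.595 with gefitinib (-0.55 ± 0.08, adjusted p = 5.98e-06) and to 0.588 with AZ1366 (-0.57 ± 0.08, adjusted p = 1.76e-05). After the length and GC correction the change was -0.60 with both compounds and -0.34 with AZ1366, and that of both compounds against gefitinib was -0.17, beside -0.39 as deposited; all 3 were still called.

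FGFR2 (chr10:123237844-123357972), whose epithelial isoform serves as the receptor for FGF7 and FGF10, measured 2.90, 3.69, 2.54 and 2.82 FPKM with both compounds and 4.30, 4.58, 3.84 and 3.54 FPKM with gefitinib. In AZ1366 libraries FGFR2 stood at 2.55, 1.66, 1.55 and 1.74 FPKM, against 3.13, 2.78, 2.85 and 2.94 FPKM with vehicle. Gefitinib lay above vehicle and AZ1366 below it, and the combination overlapped all 3 other groups, though not AZ1366 once its replicate 1 was left out. FGFR2 rose 1.39-fold with gefitinib (0.36 ± 0.10, adjusted p = 0.00413) and fell to 0.641 of vehicle with AZ1366 (-0.46 ± 0.10, adjusted p = 0.000977), the AZ1366 change being -0.28 and still called after the length and GC correction. With both compounds the change was 0.02 ± 0.10 (adjusted p = 0.89), and after the length and GC correction 0.29 (adjusted p = 0.000291). The combination differed from gefitinib by -0.35 ± 0.10 (adjusted p = 0.00822; -0.22 after quantile normalization and -0.18 after the length and GC correction, both called) and from AZ1366 by 0.48 ± 0.10 (adjusted p = 0.000478), although library ranges overlapped in both. The FGFR2 to FGFR1 ratio averaged 2.09 ± 0.22 with both compounds, 1.86 ± 0.15 with gefitinib, 0.864 ± 0.062 with AZ1366 (0.833 without its replicate 1) and 0.801 ± 0.038 with vehicle (SD, n = 4).

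**Figure D2:**
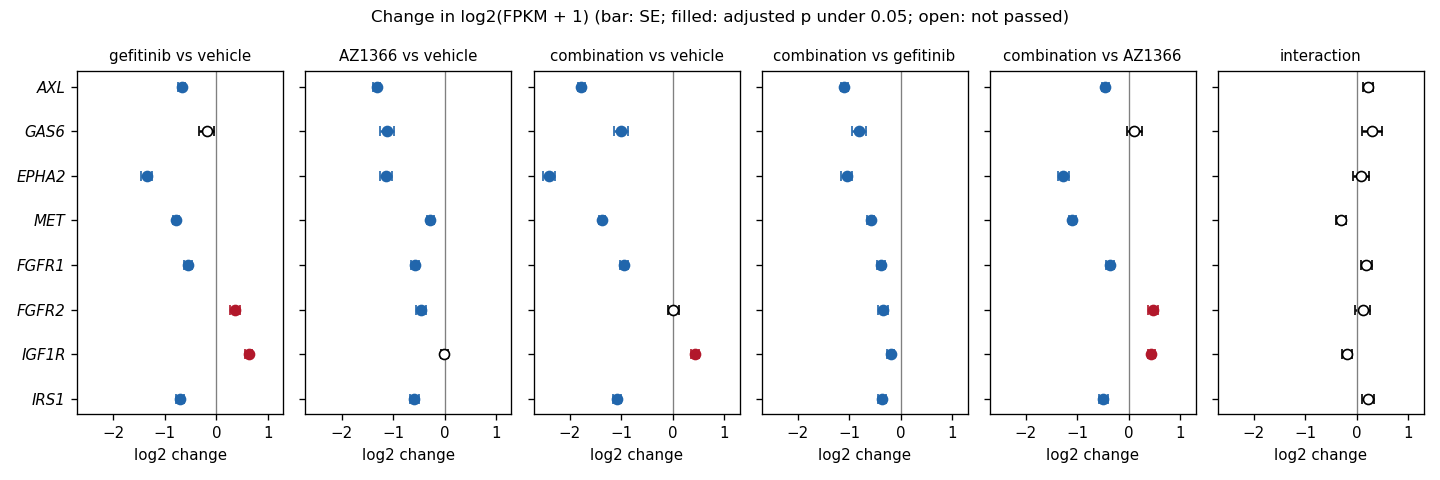
Change in log2(FPKM + 1) with its SE for the 8 genes tested with limma, in the 5 comparisons and the interaction. Points below 0 (blue where called) prevail, IGF1R and FGFR2 lie above 0 with gefitinib against vehicle (red where called), and no gene is called for the interaction.

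Taking the 8 tested genes by comparison, the treated groups were mostly lower than vehicle, where many loci of the table were called as well. With both compounds 1 gene rose and 6 fell, against 79.3% of all tested loci called in either direction (29.9% higher and 49.4% lower). With gefitinib 2 rose and 5 fell (64.6% of loci called, 27.7% higher and 36.9% lower), and with AZ1366 none rose and 7 fell (58.4% called, 18.6% higher and 39.8% lower). These 3 comparisons share the vehicle libraries. All 8 were called lower with both compounds relative to gefitinib, where 52.5% of loci were called (15.3% higher and 37.2% lower), and 2 rose and 5 fell relative to AZ1366, where 62.6% were called (26.9% higher and 35.7% lower). A count of 7 of 8 called is thus near the share of all loci in the combination and says little on its own. The sizes differed more than the counts: the median change of the 8 was -1.04 with both compounds, -0.61 with gefitinib and -0.58 with AZ1366, against -0.15, -0.06 and -0.10 over all tested loci. Under median-ratio scaling of the libraries the median of all loci was within 0.01 of 0 in each comparison. The share of called loci that were higher moved with it, to 50.1% with both compounds (37.7% as deposited), to 50.0% with AZ1366 (31.9% as deposited) and to 48.8% for the combination against gefitinib (29.1% as deposited). The epithelial marker sum given above was also lower in the treated groups through its keratins, that of leukocyte markers was higher through CD68, and that of endothelial markers was higher in the 2 gefitinib groups at under 1 FPKM. Their part in these changes was not tested.

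Library ranges gave a similar picture. Of the 8 tested genes, 7 did not overlap between both compounds and vehicle (76.5% of all tested loci did not), 7 between gefitinib and vehicle (60.9%) and 7 between AZ1366 and vehicle (40.6%). Between both compounds and gefitinib 7 did not overlap (48.6%), and between both compounds and AZ1366 6 did not (53.5%). Without AZ1366 replicate 1, the AZ1366 changes against vehicle were -1.39 for AXL, -1.26 for GAS6, -1.26 for EPHA2, -0.67 for IRS1, -0.64 for FGFR1, -0.57 for FGFR2 and -0.34 for MET. These 7 calls were the same as with it. For both compounds against AZ1366 the changes without it were -1.14 for EPHA2, -1.03 for MET, -0.41 for IRS1, -0.38 for AXL, -0.30 for FGFR1, 0.51 for IGF1R and 0.58 for FGFR2, all still called.

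**Figure D3:**
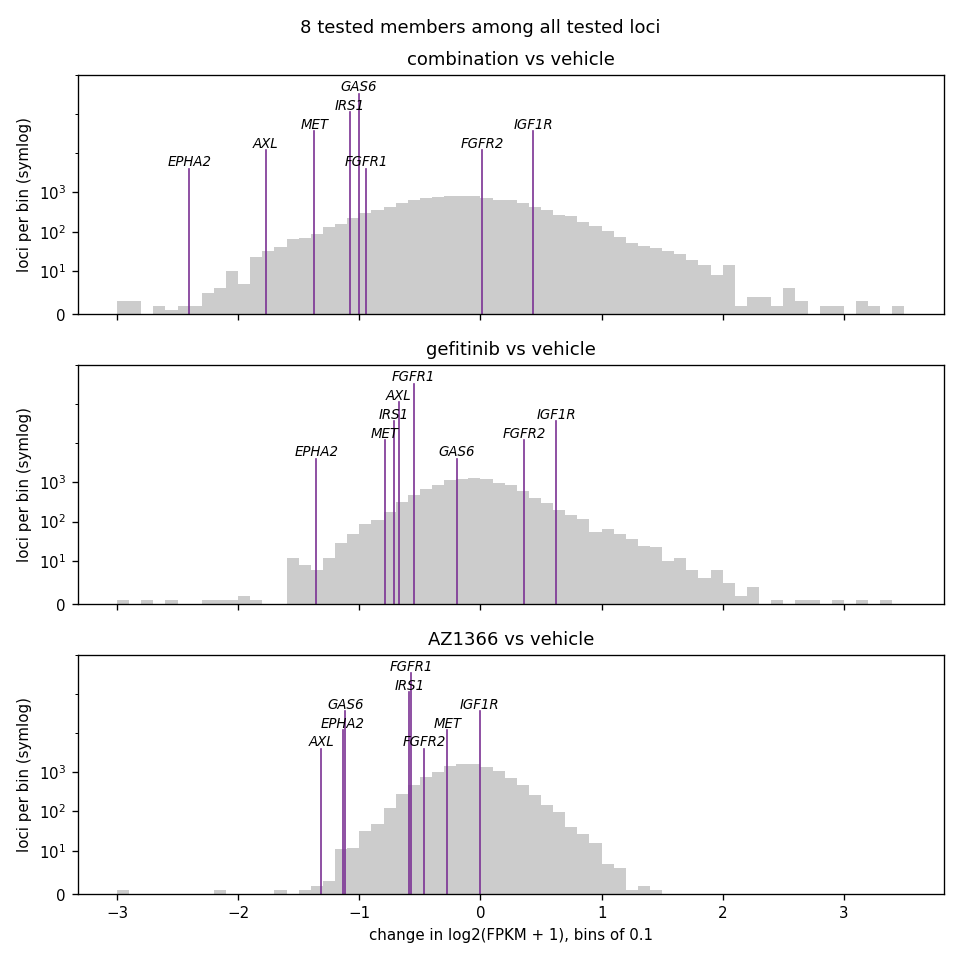
Number of tested loci per bin of 0.1 in log2 change (grey, symmetric log axis) for both compounds, gefitinib and AZ1366 against vehicle, with the 8 tested genes as lines. The end bins also hold the loci beyond them. EPHA2 at -2.40 lies in the far lower tail with both compounds and AXL at -1.32 in that with AZ1366, while FGFR2 lies near 0 with both.

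Whether the effect of 1 compound depended on the other was asked with an interaction term, the change on adding AZ1366 to gefitinib minus the change on adding it to vehicle. None of the 8 genes passed at an adjusted p under 0.05, where 1.82% of all tested loci did (0.326% higher and 1.49% lower), and AXL and MET had an unadjusted p under 0.05. The interaction was -0.31 ± 0.09 for MET (adjusted p = 0.109) and 0.22 ± 0.10 for AXL (adjusted p = 0.326). For EPHA2 it was 0.09 ± 0.16 (adjusted p = 0.834) and for GAS6, IGF1R, IRS1, FGFR1 and FGFR2 it did not pass either. MET was called after median-ratio scaling (-0.32, adjusted p = 0.0105), after the length and GC correction (-0.25, adjusted p = 0.00281) and without gefitinib replicate 4 (-0.36, adjusted p = 0.0454). AXL was called without AZ1366 replicate 1 (0.29, adjusted p = 0.0473), and IRS1 after the length and GC correction (0.22, adjusted p = 0.0188). Without AZ1366 replicate 1 the other interactions, none of them called, were 0.45 for GAS6, -0.25 for MET, -0.11 for IGF1R, 0.30 for IRS1, 0.26 for FGFR1, 0.22 for FGFR2 and 0.21 for EPHA2. In INSR the interaction was -0.01 and had no test in the main set of loci.

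The 3 most abundant of the 9 genes made up much of the receptor tyrosine kinase transcript of these cells with vehicle. Over 54 receptor tyrosine kinase genes outside the EGFR family, FPKM summed to 310.0 ± 23.2 with both compounds, 423 ± 20 with gefitinib, 379 ± 50 with AZ1366 (355 ± 14 over the 3 libraries without its replicate 1) and 560.2 ± 32.4 with vehicle (SD, n = 4). AXL, MET and EPHA2 together gave 30.5 ± 0.8% of that sum with both compounds, 42.1 ± 0.2% with gefitinib, 46.5 ± 0.6% with AZ1366 (46.8% without its replicate 1) and 56.8 ± 0.6% with vehicle. The 4 groups did not overlap in this share. DDR1, a collagen receptor chosen here after its values were seen, averaged 80.1 ± 6.4 FPKM with both compounds, 87.4 ± 4.1 with gefitinib, 65.4 ± 7.8 with AZ1366 and 66.5 ± 6.2 with vehicle. It was thereby the most abundant of the 54 with both compounds, where AXL averaged 42.6 ± 2.0 FPKM, and the third with vehicle.

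**Figure D4:**
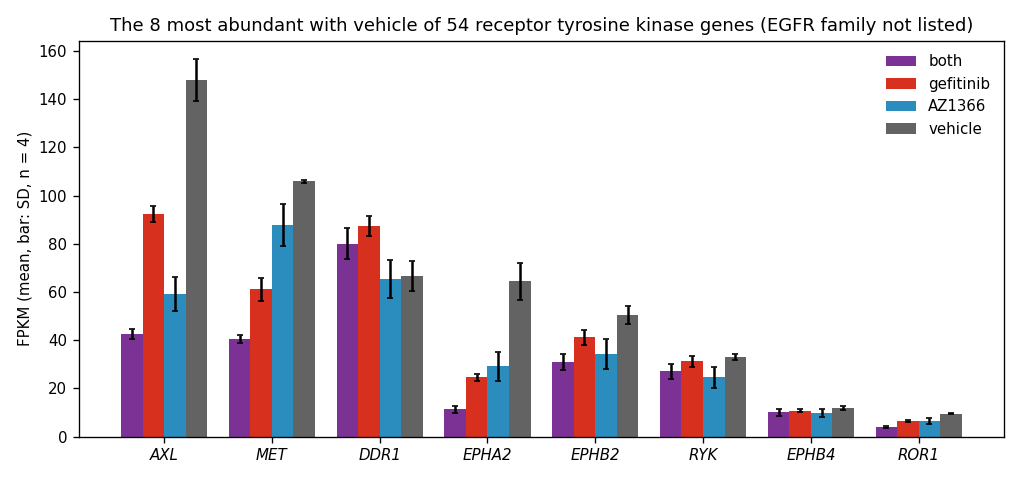
Mean FPKM (bar: SD of 4 libraries) of the 8 most abundant with vehicle of 54 receptor tyrosine kinase genes outside the EGFR family, for both compounds, gefitinib, AZ1366 and vehicle. AXL, MET and EPHA2 are highest with vehicle, and DDR1, at 80.1 FPKM, exceeds AXL and MET with both compounds.

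Among themselves the 8 tested genes fell into profiles that were more or less alike. Likeness was the root mean square (RMS) difference of log2(FPKM + 1) over the 16 libraries after centring each gene on its mean. It is given as a description of libraries that share treatment and scale. The measure is not scaled to the size of a gene's own changes, so genes that vary little tend to lie closer. The RMS of a gene's own centred values was 0.674 for AXL, 0.526 for GAS6, 0.402 for IRS1 and 0.349 for FGFR1. It was 0.323 for FGFR2 and 0.286 for IGF1R. The closest pair was FGFR1 and IRS1 (0.086), followed by IGF1R and FGFR2 (0.209) and MET and IRS1 (0.223), and AXL and GAS6 were farther apart (0.315). The most distant pair was IGF1R and EPHA2 (1.05). Among all tested loci, WWC1, NRG1 and CCBE1 were most like AXL (RMS 0.159 to 0.164), CYTH3, PLK2 and RUSC2 most like GAS6 (0.0947 to 0.113), and RAB3B, TCOF1 and UHRF1 most like EPHA2 (0.111 to 0.144). MET was nearest to NCAPH, ZAK and CENPI (0.0504 to 0.0677), IRS1 to TGM2, AKAP1 and RUNDC1 (0.0594 to 0.0649), and FGFR1 to FBXL18, RHPN2 and ZNF142 (0.0482 to 0.0517). IGF1R was nearest to APOL2, HOXC13 and WDTC1 (0.0621 to 0.0709), INSR to MPZL1, AHCYL1 and TMEM242 (0.0324 to 0.0382), and FGFR2 to the joint locus of FSTL1 and MIR198, to HIP1R and to GALNTL4 (0.0720 to 0.0806). NRG1, the ligand of ERBB3 and ERBB4, changed by -1.46 ± 0.07 with both compounds, -0.43 ± 0.07 with gefitinib and -0.97 ± 0.07 with AZ1366, each smaller in size than for AXL.

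The other genes of these pathways were read from 11 lists, in which 70 tested genes were not among the 9. Of these 70, 17 rose and 34 fell with both compounds, 19 rose and 25 fell with gefitinib, and 11 rose and 28 fell with AZ1366, against 79.3%, 64.6% and 58.4% of all tested loci called in these comparisons. The counts of each list are to be read against the same shares, and none of them is a result particular to its list. Their medians were -0.14, -0.08 and -0.14, close to those of all tested loci. After median-ratio scaling 26 rose and 28 fell with both compounds and 22 rose and 23 fell with AZ1366, and after the length and GC correction 31 rose and 24 fell with both compounds and 28 rose and 17 fell with AZ1366, so the balance of directions depended on that choice. Without AZ1366 replicate 1, 18 rose and 36 fell with both compounds, 21 rose and 30 fell with gefitinib and 9 rose and 39 fell with AZ1366.

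Of the 5 TAM receptors and ligands, all tested, 0 rose and 3 fell with both compounds, 1 rose and 3 fell with gefitinib, and 0 rose and 3 fell with AZ1366 (58.4 to 79.3% of all loci were called in these comparisons). TYRO3, a sister receptor of AXL, fell with both compounds (-0.53 ± 0.08), and MERTK, the third TAM receptor, fell with gefitinib (-0.36 ± 0.07). PROS1, the other TAM ligand, rose with gefitinib (0.31 ± 0.12). After quantile normalization 1 of the 5 TAM genes rose and 3 fell with both compounds, and likewise with AZ1366. TYRO3 was also called lower with each compound alone. Those TYRO3 calls were lost after the length and GC correction (-0.105 with gefitinib and -0.061 with AZ1366). Of the 9 MET family and HGF genes 5 were tested, with 1 up and 2 down with both compounds, 1 up and 2 down with gefitinib, and 0 up and 2 down with AZ1366, which became 3 up and 2 down, 3 up and 2 down, and 2 up and 1 down after the length and GC correction. Without AZ1366 replicate 1, 0 rose and 4 fell with AZ1366. HGF, the MET ligand, was listed at 0 in all 16 libraries. MST1R, the receptor next in kin to MET, fell with both compounds (-0.70 ± 0.08) and with gefitinib (-0.56 ± 0.08), and with AZ1366 it was -0.28 ± 0.08 as deposited and 0.05, not called, after the length and GC correction. SPINT2, an inhibitor of the proteases that activate HGF, rose with both compounds (0.31 ± 0.05).

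Of the 12 insulin and IGF receptors, ligands and substrates 5 were tested, and 1 rose and 4 fell with both compounds, 1 rose and 3 fell with gefitinib, and 0 rose and 3 fell with AZ1366. IRS2, the sister adaptor of IRS1, fell in each, with changes of -0.69 ± 0.09 with both compounds, -0.48 ± 0.09 with gefitinib and -0.65 ± 0.09 with AZ1366. In this list 1 rose and 2 fell with AZ1366 after quantile normalization. After the length and GC correction 2 called falls were lost. IGF2R with both compounds was -0.01, beside -0.45 as deposited, and GRB10 with AZ1366 was 0.02, beside -0.20. Of 6 tested IGF binding proteins, which hold IGF1 and IGF2 away from IGF1R, 1 rose and 2 fell with both compounds, 1 rose and 1 fell with gefitinib, and 0 rose and 2 fell with AZ1366. With both compounds 4 rose and 1 fell after median-ratio scaling and 3 rose and 1 fell after quantile normalization, so no direction of the group is given. IGFBP3 rose with gefitinib (1.06 ± 0.12) and fell with AZ1366 (-0.57 ± 0.12), the directions seen for FGFR2. IGFBP1 fell with both compounds (-1.28 ± 0.12), with gefitinib (-0.75 ± 0.12) and with AZ1366 (-0.49 ± 0.12).

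Of the 10 FGF receptors and coreceptors 5 were tested, of which 1 rose and 3 fell with both compounds, 2 rose and 2 fell with gefitinib, and 0 rose and 3 fell with AZ1366. FRS2, the adaptor of the FGF receptors, rose with gefitinib (0.41 ± 0.05), and FGFBP1, which releases FGF from the matrix, fell with both compounds (-1.34 ± 0.08) and with gefitinib (-0.89 ± 0.08). FGFBP1 also passed the interaction (-0.51 ± 0.11), as did the ephrin EFNA5 (-0.34), the only 2 of the 70 to do so. Of 4 tested FGF ligands 1 rose and 2 fell with both compounds, 1 rose and 1 fell with gefitinib, and 1 rose and 2 fell with AZ1366, with 2 up and 2 down in the combination under both scalings and the length and GC correction. FGF5 fell with both compounds (-1.51), with gefitinib (-0.71) and with AZ1366 (-0.82), while FGF13, an intracellular member of the family, rose with both (1.70), with gefitinib (0.89) and with AZ1366 (0.73). FGF2 fell with both compounds (-0.82) and with AZ1366 (-0.62).

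Of the 8 tested Eph receptors, EPHA2 among them, 0 rose and 5 fell with both compounds, 1 rose and 5 fell with gefitinib, and 0 rose and 4 fell with AZ1366, although after the length and GC correction 3 rose and 3 fell with both compounds and 4 rose and 2 fell with AZ1366. EPHB2 fell with both compounds (-0.69), with gefitinib (-0.29) and with AZ1366 (-0.56), and EPHB6, which lacks kinase activity, fell with both (-0.82) and with gefitinib (-0.63). Of the 6 tested ephrins 3 rose and 2 fell with both compounds, 4 rose and none fell with gefitinib, and 3 rose and 1 fell with AZ1366 (1 rose and 1 fell without AZ1366 replicate 1). EFNA1, a ligand of EPHA2, rose in each, by 1.01 with both compounds, 0.74 with gefitinib and 0.31 with AZ1366, the opposite direction to its receptor.

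Of 10 other tested receptor tyrosine kinases 5 rose and 5 fell with both compounds, 4 rose and 3 fell with gefitinib, and 3 rose and 4 fell with AZ1366, whereas after the length and GC correction 6 rose and 2 fell with both compounds and 6 rose and 3 fell with AZ1366. KDR, a VEGF receptor, rose with both compounds (1.47), with gefitinib (0.90) and with AZ1366 (0.32), and stood at 3.17 ± 0.22 FPKM with both compounds, against 0.509 ± 0.044 FPKM with vehicle (SD, n = 4). ROR1 fell with both compounds (-1.13), with gefitinib (-0.51) and with AZ1366 (-0.51). Of the 18 receptor adaptors, ligases and phosphatases, all tested, 3 rose and 10 fell with both compounds, 4 rose and 9 fell with gefitinib, and 3 rose and 8 fell with AZ1366. After median-ratio scaling 5 rose and 8 fell with both compounds and 6 rose and 7 fell with AZ1366, and after the length and GC correction 7 rose and 8 fell with both and 6 rose and 5 fell with AZ1366. PTPN11, the phosphatase that carries receptor signals to RAS, fell with both compounds (-1.12), and CBLB, a ligase that marks receptors for degradation, rose with both (0.89), with gefitinib (0.69) and with AZ1366 (0.24). Of the 6 tested sheddases and their inhibitors 2 rose and 2 fell with both compounds, 1 rose and 1 fell with gefitinib, and 1 rose and 3 fell with AZ1366, with 4 up and 2 down in the combination and 2 up and 2 down with AZ1366 after the length and GC correction. ADAM17, a protease that releases receptor ligands and the AXL ectodomain, rose with both compounds (0.52) and with gefitinib (0.45).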

How the data were processed

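Abundance was analysed in 16 libraries of polyA RNA, 4 per group. The values are FPKM per locus and library as the authors deposited them. TopHat 1.4.1, Cufflinks 1.3.0 and Cuffdiff with hg19 are named in the submitters' processing notes, without the role of each. Libraries were made with the TruSeq version 2 kit, per the labels' protocols, which do not state strand, so antisense overlap cannot be told apart. The annotation, any scaling between libraries and the depth are not given in the sources used here, and precision is known only from the spread of replicates.

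Loci with a mean of at least 1 FPKM (11647 of 24293) were fitted on log2(FPKM + 1) with limma 3.58.1 (R 4.3.3). The model held 4 treatment groups and left 12 residual degrees of freedom, variances followed a trend on the mean, and p-values were two-sided, with Benjamini-Hochberg adjustment over all tested loci and a threshold of 0.05. The 6 comparisons were each treatment against vehicle, the combination against each compound, and the interaction. A pseudocount understates changes of low genes. INSR, below the filter, was compared by an exact permutation test over 70 assignments per pair of groups. The method was tested on simulated data. The 9 genes and the 11 lists (130 genes, 128 in the table) were chosen with earlier results of these data known. Genes named beside the 9 were up to 3 per list and comparison with the largest change among those called, of which part is printed. They were chosen after their values were seen. The 3 loci nearest each of the 9 were named as well. DUSP6, EGFR, CTGF and ANKRD1 served as checks of the compounds. Locus coordinates are hg19 intervals from the file, and promoter windows are RefSeq on GRCh38.p14. Alternatives were a pseudocount of 0.1, no filter, a minimum mean of 5 FPKM, quantile normalization, median-ratio scaling, no trend, only the libraries compared, a replicate block and leaving out each library; added after seeing the data were a correction for transcript length and GC content (5 spline terms each; 10559 tested loci, 90.7%) and leaving out vehicle replicate 1 and AZ1366 replicate 1 together.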

Additional observations from a re-analysis of the deposited data

Results flagged for a closer look

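GAS6 in vehicle replicate 1 stood apart from its group at 70.05 FPKM, against 50.4 to 53.2 FPKM in the other 3 vehicle libraries, a gap of 0.858 of the group's range. It was the only one of 36 groups of 4 libraries, 9 genes in 4 treatment groups, with a gap past Dixon's critical value for 4 samples, and chance alone passes about 1 group in 20. No difference between the 2 effects of a compound passed the interaction test in the 8 tested genes.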

How the results depend on the processing

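Of the changes of the 8 tested genes under the alternatives, 1198 kept direction and call, 6 lost the call, 7 gained it and 11 changed sign. Many of the 1198 could not change sign. Leaving out a library of neither group compared keeps the estimate, as do the fits without the trend and with the replicate block. The count is thus no measure of robustness. IGF1R with AZ1366 against vehicle (-0.01 as reported) was 0.14 after quantile normalization, 0.10 after median-ratio scaling, 0.28 after the length and GC correction and between -0.078 and 0.031 when single libraries were left out. IGF1R with both compounds against gefitinib was 0.083 after the length and GC correction, and its call was lost under quantile normalization, median-ratio scaling and without gefitinib replicate 3 or 4 or combination replicate 3 or 4. FGFR2 with both compounds against vehicle lay between -0.065 and 0.070 without single libraries, and the EPHA2 interaction was -0.039 after the length and GC correction. GAS6 with both compounds against AZ1366 was called (0.25, adjusted p = 0.0318) without vehicle replicate 1 and AZ1366 replicate 1. INSR with AZ1366 against vehicle was 0.0091 after quantile normalization and 0.0286 after median-ratio scaling, with -0.044 to 0.014 without single libraries. INSR with both compounds against gefitinib was 0.0295 and 0.0325 under the same 2 scalings. Without any 1 of the combination libraries the INSR calls of the exact permutation tests were lost. The adjusted p was then 0.0714 for gefitinib and for both compounds against vehicle, and 0.0952 for both against AZ1366. Gefitinib against vehicle kept all its libraries and its difference of 0.20, so its call was lost through the adjustment over the 5 comparisons. Over all left-out libraries the difference was 0.16 to 0.21 for both compounds against vehicle and 0.18 to 0.22 for gefitinib. For both against AZ1366 it was 0.17 to 0.23.

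At a minimum mean of 5 FPKM only 5 of the genes were tested, and 4 were called with gefitinib, 4 with AZ1366, 5 with both against gefitinib and 4 with both against AZ1366. Loci called for the interaction, 212 as reported, were 525 after quantile normalization, 419 after median-ratio scaling, 590 after the length and GC correction and 101 to 513 without single libraries. Of the 8 genes, 1 was called for the interaction after median-ratio scaling, 2 after the length and GC correction and 0 to 1 without single libraries. Apart from the adjustment of the INSR tests and the smaller set of genes at 5 FPKM, the cause was not tested.

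Replicate numbers were not taken as pairs, because 16 of 24 same-number correlations of deviations, not every one, were over 0.1 (-0.447 to 0.539, median 0.215). They were higher than between different numbers (25 of 72 over 0.1, median -0.091), and 8 of 16 libraries were nearest to their own number, a hint of partial sharing. With the replicate number as a block 9388 loci were called with both compounds, 7864 with gefitinib and 7131 with AZ1366 against vehicle, 6522 and 7613 with both against gefitinib and against AZ1366, and 227 for the interaction, and the counts of the 8 genes called did not change. Depth is unknown, so no counting error can be given for low genes such as INSR.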
